A study of Mus musculus with 3 samples.

Results

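The spots described here are those richest in Nov, Gda, Nptxr, Atp2b4 and Hpcal4 in 3 mouse brain sections. In each section every array position with at least 3000 unique molecular identifiers (UMIs, 1 for each captured RNA molecule) was scored. The score was the sum over these 5 genes of ln(1 + counts per 10000), and the 130 highest positions were taken, 390 of 10239 in all. This is 3.9% of the 3332 such positions of O-Ex, 3.72% of the 3498 of O-Ctrl and 3.81% of the 3409 of Y-Ctrl. A capture spot is a small disc of tissue that can hold parts of several cells, so each value belongs to spots and not to cells. In such a spot, fewer cells of a type and less RNA per cell cannot be told apart.

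The sections came from C57BL/6J mice, with no other allele named, and were cut at 10 µm from fresh-frozen brain. O-Ex was labelled as exercised, and O-Ctrl and Y-Ctrl were labelled as controls. O and Y were read as old and young, because the series concerns exercise in the aging brain. The sources used here give no ages, no kind or length of exercise and no number of mice. Each group is 1 section. No test across animals was therefore possible, and all differences below are sizes in these 3 sections with no replicate check.

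The 5 genes that define these spots act at and around the neuronal membrane. Nov encodes CCN3, a secreted protein of the CCN family that binds to the matrix and to integrins. Gda encodes guanine deaminase, an enzyme of purine breakdown that also binds the postsynaptic scaffold protein PSD-95. Nptxr encodes the neuronal pentraxin receptor, which with the secreted pentraxins gathers AMPA-type glutamate receptors at synapses. Atp2b4 encodes a pump that exports calcium through the plasma membrane, and Hpcal4 encodes a calcium sensor of the visinin-like family. On the mm10 build Nov lies at chr15:54745702-54754039 (forward strand) and Nptxr at chr15:79786351-79804766 (reverse strand). Gda lies at chr19:21391307-21473445 and Atp2b4 at chr1:133699457-133801041, both on the reverse strand. Hpcal4 lies at chr4:123183227-123194701 on the forward strand. All 5 are annotated as protein-coding genes.

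Total counts were 53196124 UMIs in O-Ex, 58234443 in O-Ctrl and 62348064 in Y-Ctrl, and the selected spots held 2529745, 2684645 and 2904363 of them. The selected spots were deep, with a median of 19625.5 UMIs in O-Ex, 20507 in O-Ctrl and 19265 in Y-Ctrl, against 13250, 14659.5 and 15573 in the other spots. After thinning to 3000 UMIs a median of 1604.5, 1574 and 1540 genes was detected in the selected spots of O-Ex, O-Ctrl and Y-Ctrl, against 1515, 1460 and 1473 in the other spots. The array uses the same 4992 barcodes in every section. Between sections, 16 selected barcodes were common to O-Ex and O-Ctrl, 21 to O-Ctrl and Y-Ctrl, and 28 to O-Ex and Y-Ctrl.

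The selecting genes themselves describe the choice and are given without a test. The score ran up to 10.34 in O-Ex, 10.26 in O-Ctrl and 9.325 in Y-Ctrl. The last spot taken scored 7.2178 in O-Ex, 6.9331 in O-Ctrl and 6.5108 in Y-Ctrl, and the first spot left out scored 7.2173, 6.9306 and 6.5034. There was thus no gap at the border, and Y-Ctrl was admitted at the lowest score. Nov stood at 439, 365 and 375 CPM (UMIs of the gene per 1000000 UMIs) in the selected spots of O-Ex, O-Ctrl and Y-Ctrl, against 74.45, 65.2 and 60.5 CPM in the other spots. Nptxr, the most abundant of the 5, stood at 961, 991 and 674.5 CPM, against 209, 179 and 185 CPM. Gda stood at 305, 315.5 and 238 CPM in the selected spots, Atp2b4 at 220, 166.5 and 141 CPM and Hpcal4 at 531, 551 and 527 CPM.

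Each selecting gene was also high in spots chosen by the other 4 alone. Nov stood at 352.5 CPM (95% Poisson interval, here and below for counting error only, 329 to 377.5) in O-Ex spots chosen without it, at 290 (270 to 311.5) in O-Ctrl and at 305 (285 to 325.5) in Y-Ctrl. The other spots of these sections stood at 80.0, 69.0 and 64.0 CPM. Across the 5 genes and 3 sections the log2 ratio of such spots to other spots ran from 1.20 for Hpcal4 in Y-Ctrl to 2.17 for Nov in Y-Ctrl. Spots chosen by 4 of the genes included 96 to 113 of the 130 chosen by all 5.

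A UMI of Nov was found in 100% of the selected O-Ex spots, 98.5% of those of O-Ctrl and 97.7% of those of Y-Ctrl. In the 130 spots of each section richest in myelin genes it was found in 12.3%, 6.92% and 5.38%, at median depths of 8287, 9830.5 and 10292 UMIs. With every spot thinned to 3000 UMIs the shares in the selected spots were 69.2%, 60.0% and 69.2%, against 5.38%, 1.54% and 0.769% in the myelin-rich spots. Nov is a selecting gene, so these shares describe the choice of spots.

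Genes outside the score showed what kind of tissue these spots cover. All were compared with the other spots of the same section, as a description of the chosen spots. Of 3331 genes that averaged 50 CPM or more in the selected spots, 222 were at least 1.5-fold higher than in other spots in every section and 58 were at least 1.5-fold lower. The highest was Lypd1, a membrane-anchored protein of the Ly6 family that modulates nicotinic receptors, encoded at chr1:125867622-125913101 on the reverse strand. Lypd1 stood at 289, 226 and 206 CPM in the selected spots of O-Ex, O-Ctrl and Y-Ctrl, against 62.2, 65.3 and 51.95 CPM in the other spots. Slc30a3, the transporter that loads zinc into glutamatergic vesicles, stood at 189, 195 and 135 CPM, against 54.2, 47.0 and 44.4 CPM in other spots. Slc17a7, which loads glutamate into vesicles in cortex and hippocampus and is not among the 20 leading genes, stood at 1008, 1168 and 802 CPM, against 434, 399.5 and 388.5 CPM. Nptx2, a secreted pentraxin that is a partner of Nptxr, stood at 71.9, 78.6 and 91.2 CPM, against 20.5, 16.9 and 30.6 CPM. Icam5, an adhesion molecule of the dendrites of telencephalic neurons, stood at 182, 163.5 and 167 CPM, against 72.0, 59.8 and 64.7 CPM.

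Among the other leading genes, calcium-binding or synaptic proteins were Hpcal1, a calcium sensor related to Hpcal4 (mean log2 ratio over the 3 sections 1.71), Syt17, a synaptotagmin (1.72), and Tesc (1.30). Membrane and receptor proteins were Kcnf1, a potassium channel subunit (1.36), Cacng3, an auxiliary subunit of AMPA receptors (1.35), and Plxnd1, a semaphorin receptor (1.45). Wfs1, a membrane protein of the endoplasmic reticulum that is high in CA1 and in upper cortical layers, had a mean ratio of 1.61. Bhlhe22, a transcription factor of cortical projection neurons, had a mean ratio of 1.33. All of the 20 leading genes were at least 1.5-fold higher in all 3 sections.

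**Figure D1:**
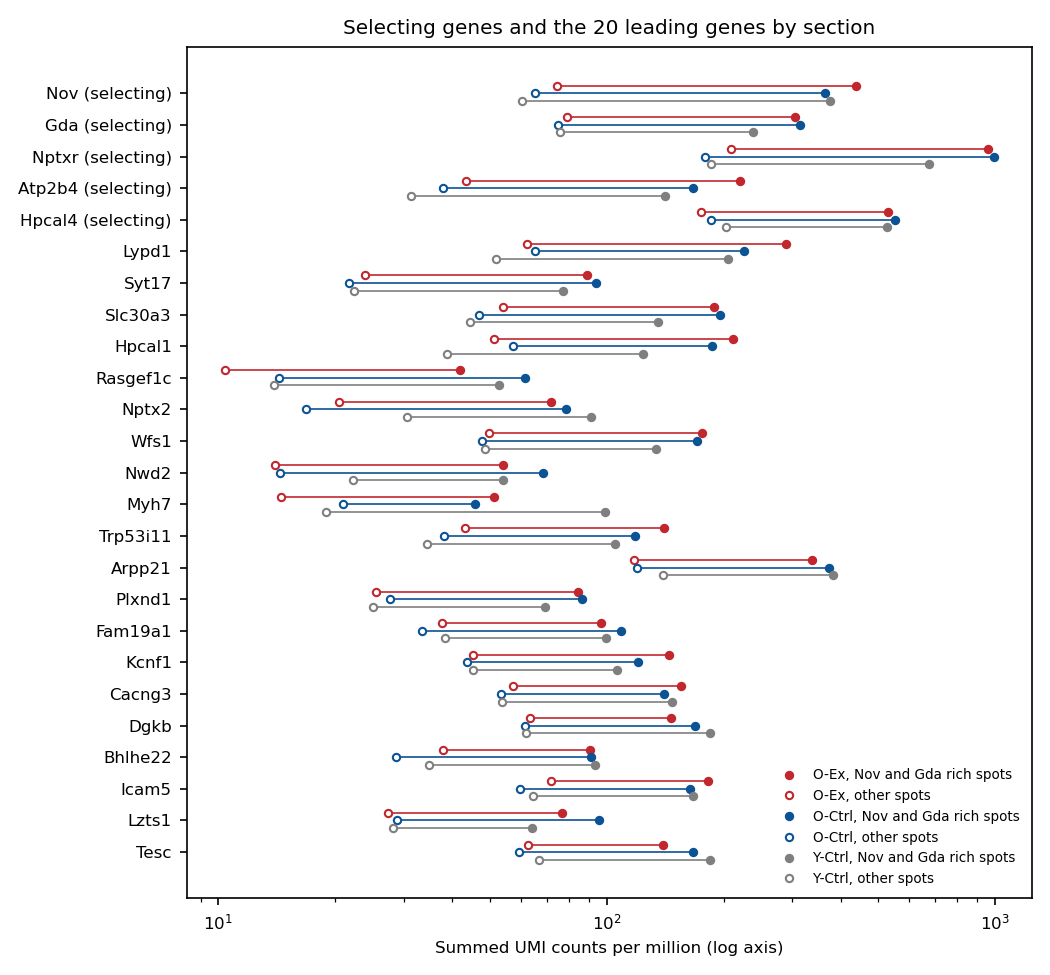
Summed CPM (log axis) of the 5 selecting genes and of the 20 genes with the highest mean ratio, in O-Ex, O-Ctrl and Y-Ctrl (top to bottom within a gene). Filled points are the selected spots and open points the other spots of the same section, joined by a line; every filled point lies above its open point, for example Lypd1 at 289, 226 and 206 against 62.2, 65.3 and 51.95.

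The genes lowest in these spots included several of myelin, and Ttr and Pvalb. Mobp, a myelin protein of oligodendrocytes, stood at 127, 90.1 and 69.2 CPM in the selected spots of O-Ex, O-Ctrl and Y-Ctrl, against 695, 787.5 and 615.5 CPM in the other spots. All 8 myelin genes of the white matter list were lower than in other spots in every section. Ttr, the thyroid hormone carrier that choroid plexus makes in very large amounts, had the lowest mean log2 ratio, -3.75. Pvalb, the calcium buffer of fast-spiking interneurons, had a mean ratio of -2.14. It does not stand for all inhibitory neuron genes: of the 8 listed, 4 were lower in every section and 3 were higher in every section. Those higher were Vip, a peptide of interneurons, Cnr1, a cannabinoid receptor, and Sst, the peptide somatostatin, with mean ratios of 0.98, 0.74 and 0.13. The 4 thalamus genes measured at 50 CPM or more (in the selected or the other spots) were lower in every section. Summed over the 7 listed thalamus genes, the selected spots held 74.3, 61.1 and 76.4 CPM, against 355.5, 364 and 593 CPM in the other spots.

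To place single spots, each spot was given the marker list on which it stood highest relative to all spots of its section, out of 21 lists. The amygdala and piriform list (Lypd1, Lmo3, Rspo2, Cyp26b1, Nrp2) led 25 of the 130 spots in O-Ex, 40 in O-Ctrl and 36 in Y-Ctrl. These were 19.2%, 30.8% and 27.7%, against 4.26%, 5.75% and 4.17% of all spots of at least 3000 UMIs. The upper cortical layer list (Cux2, Lamp5, Rasgrf2, Calb1, Otof, Cux1, Mdga1) led 24, 25 and 38. These were 18.5%, 19.2% and 29.2%, against 7.56%, 6.38% and 7.07% of all such spots. Among the deeper and lateral cortical lists, layer 6b led 14, 12 and 7 spots (10.8%, 9.23% and 5.38%, against 3.72%, 3.43% and 3.31% of all such spots). Layer 5 led 10, 11 and 7 (7.69%, 8.46% and 5.38%, against 4.86%, 5.26% and 5.6%). Layer 6 led 4, 10 and 7 (3.08%, 7.69% and 5.38%, against 4.53%, 4.57% and 4.43%). Claustrum, insula and endopiriform led 10, 7 and 6 (7.69%, 5.38% and 4.62%, against 3.57%, 3.57% and 3.46%). Layer 6 in O-Ex and layer 5 in Y-Ctrl were thus below their share of all spots. White matter, thalamus, hypothalamus, choroid plexus, ependyma and retrosplenial cortex led 0 of the 130 spots in each section, where the exact 95% binomial interval reaches 2.8%. Their shares of all such spots ran from 2.11% (choroid plexus in Y-Ctrl) to 9.12% (white matter in Y-Ctrl).

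The label of cortical spots held in part. A cortical or amygdala and piriform list led 95 of 130 spots in O-Ex (73.1%, 95% binomial interval 64.6 to 80.5), 111 in O-Ctrl (85.4%, 78.1 to 91.0) and 108 in Y-Ctrl (83.1%, 75.5 to 89.1). Over all spots of at least 3000 UMIs these lists led 43.5%, 43.9% and 44.6%. A hippocampal list led 6, 13 and 8 of the selected spots (4.62%, 10.0% and 6.15%), against 10.5%, 9.95% and 11.0% of all such spots. Tbr1, a transcription factor of cortical glutamatergic neurons, stood at 125, 116 and 98.1 CPM in the selected spots, against 66.9, 61.45 and 66.9 CPM in the other spots. As a whole the spots were rich in Slc17a7 and poor in myelin genes. Lypd1 and Lamp5 were not equally high in all of them. Neither the amygdala and piriform nor the upper cortical layer list led 81, 65 and 56 spots. These held Lypd1 at 106, 83.5 and 102 CPM, against 62.2, 65.3 and 51.95 CPM in the spots that were not selected. The same 81, 65 and 56 spots held Lamp5 at 137, 68.75 and 115 CPM, against 108, 124 and 131 CPM in unselected spots.

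**Figure D2:**
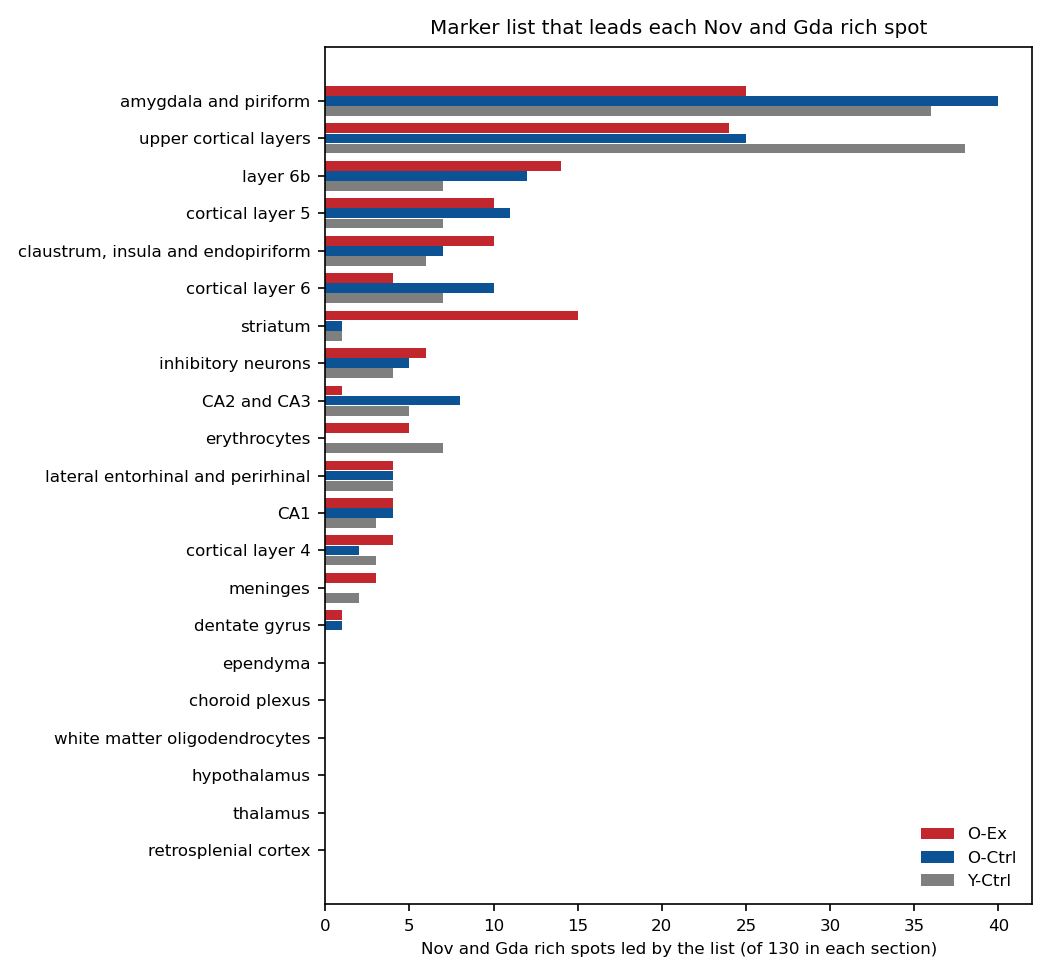
Number of selected spots (of 130 in each section) led by each of 21 marker lists, with O-Ex above O-Ctrl above Y-Ctrl. The amygdala and piriform list (25, 40 and 36 spots) and the upper cortical layer list (24, 25 and 38) are the longest bars of O-Ctrl and Y-Ctrl, and the striatum list has 15 spots in O-Ex and 1 in each other section.

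The selection held spots led by different lists. Spots led by the amygdala and piriform list held Lypd1 at 1035, 513 and 481 CPM in O-Ex, O-Ctrl and Y-Ctrl, and spots led by the upper cortical layer list held it at 166, 137 and 145 CPM. Lypd1 belongs to the list that sorted these spots, so its contrast describes the sorting. Nptxr was high in both, at 981, 1098 and 796.5 CPM in the first kind and at 968, 910 and 687.5 CPM in the second. Nov was likewise high in both, at 407, 393 and 354 CPM and at 406.5, 350 and 379 CPM. Both belong to the score, so their high values in both kinds follow from the choice of spots.

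The mixture differed between the sections. Spots led by the upper cortical layer list held 22.2% of the selected UMIs in O-Ex, 24.3% in O-Ctrl and 43.4% in Y-Ctrl. Spots led by the amygdala and piriform list held 18.3%, 30.2% and 22.4%. The part of this mixture in the results below was not tested. Ratios within the spots of a single kind are therefore given for some genes and lists below. Spots of a single kind were not alike between sections either. Those led by the amygdala and piriform list held Slc17a7 at 699.5 CPM in O-Ex and 1133 in O-Ctrl, and Lamp5 at 49.8 and 111 CPM. Those led by the upper cortical layer list held Slc17a7 at 900 and 876 CPM. Ratios within a kind can hold such differences, and their part was not tested.

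A group of 15 selected O-Ex spots was led by the striatum list, against 1 spot in O-Ctrl and 1 in Y-Ctrl. In O-Ex, O-Ctrl and Y-Ctrl these were 11.5%, 0.769% and 0.769%, against 3.06%, 2.89% and 3.52% of all spots of at least 3000 UMIs. These 15 spots held the opioid peptide precursor Penk at 585 CPM, against 50.1 CPM in the other O-Ex spots. Drd2 and Adora2a, the receptors that define striatopallidal neurons, each had 0 counts of 393338 UMIs, which allows up to 7.63 CPM. Drd1 had 6 counts and Rgs9 3 counts. The same spots held Slc17a7 at 1292 CPM and Nptxr at 1383 CPM. Penk led the list in these spots, and the defining striatal receptors were at or near 0. Over all selected spots Penk stood at 147, 159 and 123 CPM in O-Ex, O-Ctrl and Y-Ctrl.

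Exercise was addressed by comparing O-Ex with O-Ctrl in these spots, leaving out the 5 selecting genes. Ratios are on a log2 scale with 5 CPM added to both sections, so those of low genes are understated, and a 1.5-fold difference is used as a size. The selected spots of the sections were close for most genes: 99.4% of the 3326 genes that averaged 50 CPM or more over the sections lay within 1.5-fold, and the median log2 ratio was -0.01. At least 1.5-fold higher in O-Ex were 16 genes (0.481%), and at least 1.5-fold lower were 4 (0.12%). Of the genes past this size 80.0% were thus higher, and with TMM scaling the counts were 13 and 6, or 68.4% higher. The other spots of the same sections had 10 genes higher and 2 lower. Sets of equally many spots, the highest by a marker list among the spots that were not selected, were also compared. The upper cortical layer list gave 27 higher and 3 lower, layer 6 gave 17 and 3, and amygdala and piriform gave 84 and 34. The 16 higher genes were fewer than in each of these sets, and the 4 lower genes lay within their range. O-Ctrl is shared with the comparison by age below, so a deviation of that section enters both with opposite sign.

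The highest genes were of choroid plexus and blood. Ttr had 7984 counts in the selected spots of O-Ex, 448 in O-Ctrl and 598 in Y-Ctrl, or 3156, 167 and 206 CPM. Per spot it ran from 0 to 391 counts in O-Ex (median 22.5), from 0 to 18 in O-Ctrl (median 3) and from 0 to 23 in Y-Ctrl (median 4). At least 100 Ttr counts were found in 22 spots of O-Ex and in 0 of O-Ctrl and Y-Ctrl, and these 22 spots held 65.6% of the section's selected Ttr. Of the 22, 15 were led by the amygdala and piriform list and 5 by layer 6b. The log2 ratio of O-Ex over O-Ctrl was 4.20 in all selected spots, 2.94 without these 22 spots and 1.35 in the other spots. In these sets of unselected spots ranked by a marker list, Ttr also differed. Its ratio there was 4.86 for the amygdala and piriform list, 3.09 for layer 6 and 1.28 for the upper cortical layer list. A higher Ttr level in O-Ex was thus not limited to the selected spots. The remaining choroid plexus markers were also highest in O-Ex: Folr1 had 51, 3 and 1 counts in O-Ex, O-Ctrl and Y-Ctrl, Clic6 had 49, 4 and 1, Kl had 38, 7 and 8, and Aqp1 had 6, 0 and 0. Enpp2, which makes the signalling lipid lysophosphatidic acid, is also a choroid plexus marker. Enpp2 stood at 457, 125 and 166 CPM, a log2 ratio of 1.83 (1.22 without the 22 spots). In the spots ranked by the amygdala and piriform, layer 6 and upper cortical layer lists its ratio was 3.39, 1.25 and 0.37. The 6 listed choroid plexus genes together stood at 3670, 297 and 375 CPM, and 0 selected spots were led by that list.

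Haemoglobin genes followed. Hbb-bs stood at 701, 112 and 423.5 CPM in O-Ex, O-Ctrl and Y-Ctrl, and Hba-a1 at 334, 35.8 and 182.5 CPM. The log2 ratios of O-Ex over O-Ctrl were 2.60 and 3.06, and those of the near-identical copies Hbb-bt and Hba-a2 were 2.09 and 2.92. In the other spots the ratios of Hbb-bs, Hba-a1, Hbb-bt and Hba-a2 were 0.84, 0.82, 0.85 and 0.90, each also past 1.5-fold. Reads can be split between near-identical copies, so the single values are uncertain. The counts sat in few spots: the 3 richest spots held 49.7% of the haemoglobin and Alas2 counts of the selected O-Ex spots, 15.9% in O-Ctrl and 58.5% in Y-Ctrl. Among spots led by a cortical or amygdala and piriform list the ratios of Hbb-bs and Hba-a1 were 1.63 and 2.02. Alas2, the erythroid enzyme of haem synthesis, had 4, 1 and 2 counts. The 260 highest-scoring spots gave Hba-a1 a ratio of 1.14.

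**Figure D3:**
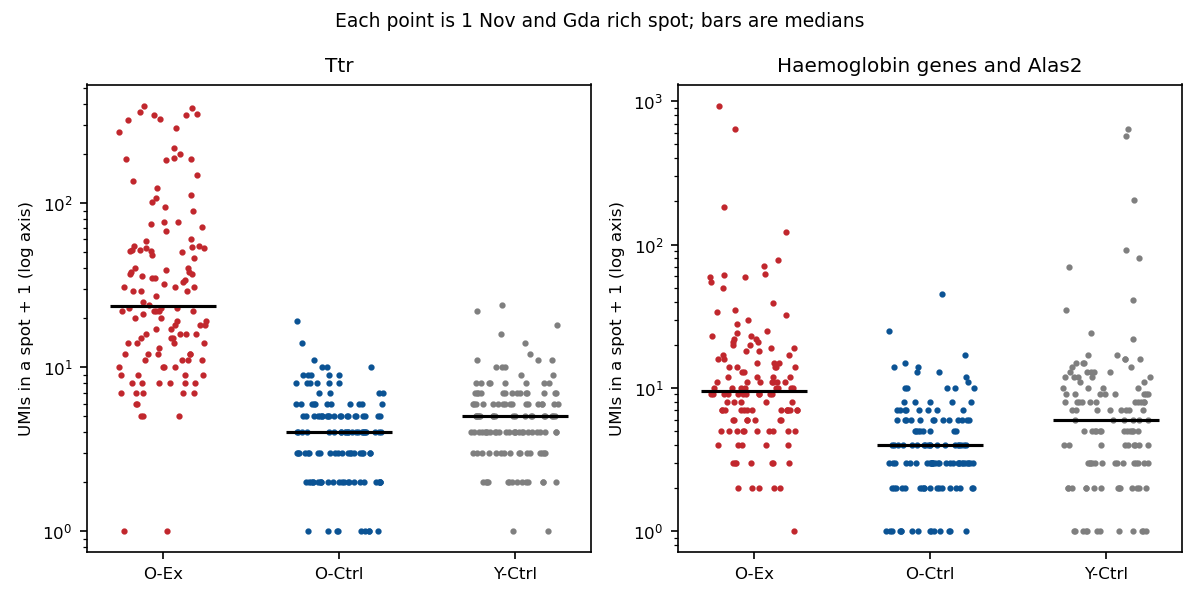
Ttr counts (left) and summed haemoglobin and Alas2 counts (right) in each selected spot plus 1, on log axes, for O-Ex, O-Ctrl and Y-Ctrl, with medians as bars. The Ttr medians are 22.5, 3 and 4 counts, and Ttr exceeds 100 in O-Ex spots alone, while haemoglobin is carried by a few spots in O-Ex and Y-Ctrl.

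Myelin and lipid transport genes were also higher in the selected O-Ex spots than in those of O-Ctrl. Apod, an apolipoprotein of oligodendrocytes and other glia, stood at 138 CPM in O-Ex and at 67.4 CPM in O-Ctrl, and Trf, the iron carrier transferrin, at 122 CPM and 64.1 CPM. The log2 ratios were 0.99 and 0.88, against -0.14 and 0.06 in the other spots. All 4 white matter genes measured at 50 CPM or more were higher (4 of 4, median 0.41, against -0.18 in the other spots), with Mobp at 127 CPM in O-Ex and 90.1 in O-Ctrl. The 8 listed white matter genes together stood at 1206 CPM in O-Ex, 903 in O-Ctrl and 814 in Y-Ctrl. Ptgds, a prostaglandin synthase of meninges and oligodendrocytes, stood at 555, 226 and 439 CPM, a ratio of 1.28. Meninges genes led 3, 0 and 2 of the selected spots (2.31%, 0.0% and 1.54%), against 3.36%, 3.34% and 3.52% of all spots of at least 3000 UMIs. The part of neighbouring glia and meninges in these values was not tested.

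Among neuronal genes, Eef1a2 and Snhg11 were higher in O-Ex both here and elsewhere in the section. Eef1a2, the translation elongation factor of mature neurons, stood at 438 CPM (412 to 464) in O-Ex, 216 (199 to 235) in O-Ctrl and 240 (222 to 258) in Y-Ctrl. Its log2 ratio of O-Ex over O-Ctrl was 1.00, and it was 0.91 in the other spots. Snhg11, a neuronal noncoding RNA, stood at 340, 190 and 173 CPM, with ratios of 0.83 and 0.78. Over 19 alternative settings, those with spots of a single kind included, these ratios ran from 0.71 to 1.48 and from 0.73 to 1.15. Egr1, an immediate early transcription factor, stood at 151, 92.75 and 136 CPM, a ratio of 0.67 (0.54 in the other spots). It was 0.05 in spots led by the amygdala and piriform list and 1.01 in those led by the upper cortical layer list. Cort, a peptide of inhibitory neurons related to somatostatin, stood at 75.1, 43.2 and 32.0 CPM, with a ratio of 0.73 here and -0.06 in the other spots. Rfx3, a transcription factor of cilia genes, had a ratio of 0.65, and of 1.39 in spots led by the amygdala and piriform list and 0.32 in those led by the upper cortical layer list. Cdh13, an adhesion molecule, had a ratio of 0.59, and its sign turned with the kind of spot, at 1.13 and -0.12. Cryab, a small heat shock protein, had a ratio of 0.59, and of 0.67 and 0.48 within these kinds.

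Only 4 genes were at least 1.5-fold lower in O-Ex. Lmo3, a LIM-only transcriptional cofactor of the amygdala and piriform list, stood at 126 CPM (113 to 141) in O-Ex, 224 (207 to 243) in O-Ctrl and 120 (108 to 133) in Y-Ctrl. O-Ctrl was high and the other sections overlapped in their counting intervals. The ratio of O-Ex over O-Ctrl was -0.81, against 0.07 in the other spots. Within the spots led by the amygdala and piriform list it was -0.56, with 251 CPM in O-Ex and 373.5 in O-Ctrl, and in those led by the upper cortical layer list it was -0.57. Fam19a2, a secreted protein of the TAFA family, had a ratio of -0.63, and Krt12, a keratin, of -0.65. Ly6c1, an endothelial surface protein, had a ratio of -0.60 here and -0.59 in the other spots.

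**Figure D4:**
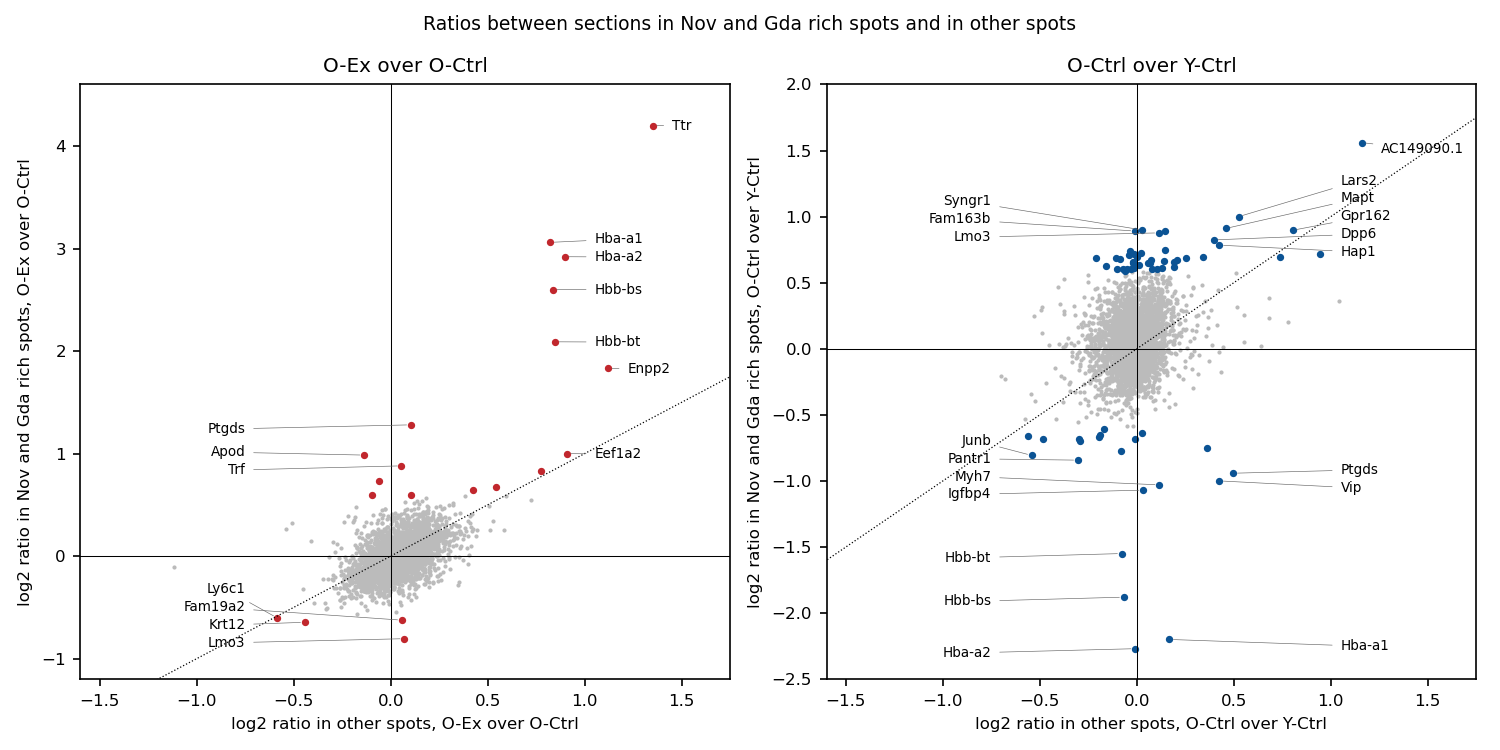
Log2 ratio between sections in the selected spots (vertical) against that in the other spots of the same sections (horizontal) for 3326 genes, O-Ex over O-Ctrl on the left and O-Ctrl over Y-Ctrl on the right. Coloured points are at least 1.5-fold apart in the selected spots and the dotted line marks equal ratios; Ttr (4.20 here, 1.35 elsewhere) lies far above it and Eef1a2 (1.00 and 0.91) close to it.

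Gene groups differed by small amounts between O-Ex and O-Ctrl. All 8 glutamate receptor subunits measured at 50 CPM or more were higher than in O-Ctrl, with a median of 0.17 and 0 past 1.5-fold. Gria2, the AMPA receptor subunit that limits calcium entry, stood at 457 CPM in O-Ex and 378 in O-Ctrl. In the other spots the median of these 8 was 0.22. GABA-A receptor subunits were higher in 8 of 9, with a median of 0.09, and of -0.04 in spots led by the amygdala and piriform list. Of 17 chaperones 14 were higher (median 0.11, and 0.23 in the other spots), and Cryab was the 1 past 1.5-fold. Hspa5, the main chaperone of the endoplasmic reticulum, stood at 259 CPM in O-Ex and 171 in O-Ctrl, a ratio of 0.58. All 4 noncoding RNAs were higher (median 0.42), Meg3 with 402 and 274 CPM among them. The complement genes C1qa, C1qb and C1qc, made by microglia, were higher in 3 of 3 (median 0.41, and 0.09 in the other spots), with C1qa at 82.2 CPM in O-Ex and 63.7 in O-Ctrl. Over all 3326 genes 48.6% were above 0.

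Nuclear respiratory chain genes were more often slightly lower. Of 27 nuclear genes of the respiratory chain 20 were lower in O-Ex and 0 were past 1.5-fold, with a median of -0.13 and a range of -0.26 to 0.25. In the other spots the median was -0.09. Ndufa4, a small subunit linked to complex IV, stood at 1553 CPM in O-Ex and 1800.0 in O-Ctrl. Of 16 synaptic vesicle and release genes 12 were lower, with a median of -0.02. The sign of that median turned to 0.07 without the 22 Ttr-rich spots and to 0.05 in spots led by the upper cortical layer list. The immediate early genes were mixed, with 3 of 7 higher and a median of -0.12, against 0.35 in the other spots. Their median was 0.07 without the 22 Ttr-rich spots, 0.24 in spots led by the upper cortical layer list and -0.55 in those led by the amygdala and piriform list. The 7 cholesterol synthesis genes were mixed too, with 4 higher and a median of 0.02, and of -0.57 in spots led by the amygdala and piriform list. The 15 listed interferon and GTPase genes were below 50 CPM each, and together stood at 128.5 CPM in O-Ex, 153.5 in O-Ctrl and 89.2 in Y-Ctrl.

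Age was addressed by comparing O-Ctrl with Y-Ctrl. In the selected spots 98.0% of the 3326 genes lay within 1.5-fold and the median log2 ratio was 0.04. At least 1.5-fold higher in O-Ctrl were 44 genes (1.32%) and at least 1.5-fold lower were 21 (0.631%). In the other spots 9 were higher and 2 lower. Among the equally large sets ranked by a marker list, the upper cortical layer list gave 7 higher and 7 lower. Layer 6 gave 22 and 10, and amygdala and piriform gave 46 and 70. The counts of 44 and 21 thus lay within the range of these sets. Of the 44 genes 27 had the same sign in the other spots and 4 were past 1.5-fold there. Of the 21 lower genes 14 had the same sign and 0 were past 1.5-fold there. Sums over few spots vary more than sums over a whole section, so such a contrast of counts is no test. The share of upper-layer spots, given above, and the lower admitting score of Y-Ctrl differed together with this comparison, and their part in it was not tested.

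Cholesterol synthesis genes were the list with the highest median in this comparison. All 7 measured members were higher in O-Ctrl, 4 of them past 1.5-fold, with a median log2 ratio of 0.61 and of 0.06 in the other spots. Msmo1, a sterol oxidase, stood at 118.5 CPM in O-Ctrl and 69.55 in Y-Ctrl, and Sqle, the squalene epoxidase, at 79.3 and 48.9 CPM. O-Ex was closer to O-Ctrl for these, at 126.5 CPM for Msmo1 and 80.6 for Sqle. Within the spots led by the upper cortical layer list the O-Ctrl over Y-Ctrl ratios of Msmo1 and Sqle were 0.62 and 0.57. Within those led by the amygdala and piriform list they were 0.50 and 0.36. When spots were thinned before scoring, Msmo1 had its lowest ratio, 0.38.

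Of 16 synaptic vesicle and release genes 15 were higher, with a median ratio of 0.33, a range of -0.07 to 0.57 and 0 past 1.5-fold, and in the other spots 8 of 16 were higher with a median of 0.00. Syn1, a synapsin that ties vesicles to the cytoskeleton, stood at 415 CPM in O-Ctrl and 278 in Y-Ctrl (ratio 0.57), and at 461 CPM in O-Ex. Its ratio of O-Ctrl over Y-Ctrl was 0.46 and 0.48 within the spots led by the amygdala and piriform and by the upper cortical layer list. Other synaptic lists lay closer to the 57.6% above 0 over all 3326 genes. The postsynaptic scaffold was higher in 6 of 9 (median 0.10), glutamate receptor subunits in 5 of 8 (median 0.07) and GABA-A receptor subunits in 5 of 9 (median 0.00). Snap25, a fusion protein of the vesicle, stood at 2842 and 2421 CPM. Syngr1, a synaptic vesicle membrane protein outside the list, stood at 318 CPM in O-Ctrl and 168 in Y-Ctrl (ratio 0.90, and 0.03 in the other spots). Slc17a7 stood at 1168 and 802 CPM, a ratio of 0.54, and its ratio was 0.29 within spots led by the upper cortical layer list. Potassium channel genes were higher in 11 of 13 (median 0.15, and -0.08 in the other spots), and CaM kinase and calcineurin genes in 7 of 11 (median 0.18, and -0.11).

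Further genes at the top were Mapt, Fam163b, Gpr162, Lmo3, Dpp6 and Hap1. Mapt, the microtubule protein tau, stood at 142 CPM (128 to 157) in O-Ctrl and 73.3 (63.8 to 83.9) in Y-Ctrl, with a ratio of 0.91 here and 0.46 in the other spots. Over the same 19 alternative settings it ran from 0.73 to 0.95. Fam163b stood at 110 and 57.2 CPM, with ratios of 0.89 here and -0.01 elsewhere. Gpr162, an orphan receptor, had ratios of 0.90 and 0.80, Dpp6, an auxiliary subunit of A-type potassium channels, 0.82 and 0.40, and Hap1, which binds huntingtin, 0.78 and 0.43. Lmo3, again highest in O-Ctrl, had a ratio of 0.88, and of 0.28 within spots led by the amygdala and piriform list and 1.35 within those led by the upper cortical layer list. In the last of these it stood at 76.7 CPM in O-Ctrl and 26.99 in Y-Ctrl, and at 49.9 CPM in O-Ex. AC149090.1 had the highest ratio, 1.56 (160.5 and 51.0 CPM, and 1.16 in the other spots), and Lars2, the mitochondrial leucyl-tRNA synthetase, had 1.00 (0.30 within spots led by the amygdala and piriform list and 1.39 within those led by the upper cortical layer list). Both can share reads with near-identical sequence elsewhere, so their levels are uncertain. Lysosomal genes were higher in 12 of 12, with a median of 0.24 here, 0.22 in the other spots and 0.00 in spots led by the amygdala and piriform list, and Ctsd, a lysosomal protease, stood at 290 CPM in O-Ctrl and 242 in Y-Ctrl.

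Among glial and immune genes, the complement genes C1qa, C1qb and C1qc were 3 of 3 higher in O-Ctrl with a median of 0.05, against 0.64 in the other spots. The median was -0.43 within spots led by the amygdala and piriform list and 0.26 within those led by the upper cortical layer list. The 4 white matter genes had a median of 0.23 here and 0.18 in the other spots, and 3 of them were higher. C4b, a complement component of glia, had 24 counts in O-Ctrl and 13 in Y-Ctrl, or 8.94 and 4.48 CPM, and in the other spots it stood at 94.9 and 15.7 CPM. Gfap, the filament protein of reactive astrocytes, stood at 21.2 and 15.8 CPM, against 133 and 52.4 CPM in the other spots. Serpina3n, a protease inhibitor of reactive glia, had 28 and 19 counts here, or 10.4 and 6.54 CPM, against 36.1 and 10.6 CPM in the other spots. C4b, Gfap and Serpina3n were picked after their values were seen, and the difference between selected and other spots was not tested.

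The 21 genes at least 1.5-fold lower in O-Ctrl than in Y-Ctrl included the haemoglobin genes, Lamp5, Vip, Myh7, Igfbp4 and Junb. The 4 haemoglobin genes had ratios of -2.27 to -1.55, and of -0.63 to -0.08 among spots led by a cortical or amygdala and piriform list. Lamp5, a membrane protein of upper-layer neurons and some interneurons, stood at 150.5 CPM in O-Ctrl and 260 in Y-Ctrl, a ratio of -0.77. Within spots led by the upper cortical layer list it was -0.40, and within those led by the amygdala and piriform list 0.45. Vip, a peptide of interneurons, stood at 67.05 CPM in O-Ctrl and 139 in Y-Ctrl, and Myh7, a myosin heavy chain, at 45.8 and 98.8 CPM. Their ratios were -1.0 and -1.03. They were -1.17 and -1.0 within spots led by the upper cortical layer list, and -0.48 and -0.39, both under 1.5-fold, within those led by the amygdala and piriform list. Igfbp4, a binding protein of insulin-like growth factors, stood at 35.0 CPM (28.3 to 42.85) in O-Ctrl and 78.85 (69.0 to 89.75) in Y-Ctrl, and at 41.1 CPM in O-Ex. Its ratio was -1.07 here, 0.03 in the other spots, -0.94 within spots led by the amygdala and piriform list and -1.19 within those led by the upper cortical layer list.

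Immediate early genes were lower in O-Ctrl in 6 of 7 (median -0.20, and -0.42 in the other spots). Junb, a subunit of the AP-1 transcription factor, stood at 51.4 CPM in O-Ctrl and 93.65 in Y-Ctrl (ratio -0.81), and at 40.3 CPM in O-Ex. Its ratio was -0.19 within spots led by the amygdala and piriform list and -1.35 within those led by the upper cortical layer list. Egr1 and Egr3 had ratios of -0.53 and -0.54. Jun was the 1 member that was higher, with a ratio of 0.38. Arc, a dendritic protein made after activity, lay below 50 CPM on average with 55 counts in O-Ctrl and 142 in Y-Ctrl, or 20.5 and 48.9 CPM. Bc1, a noncoding RNA of dendrites, stood at 7431 CPM in O-Ctrl and 11910 in Y-Ctrl, with ratios of -0.68 here and -0.49 elsewhere. Of 27 nuclear respiratory genes 18 were lower (median -0.11, and 0.03 in the other spots and 0.01 in spots led by the upper cortical layer list), with Cox8a at 2588 and 3060.0 CPM.

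**Figure D5:**
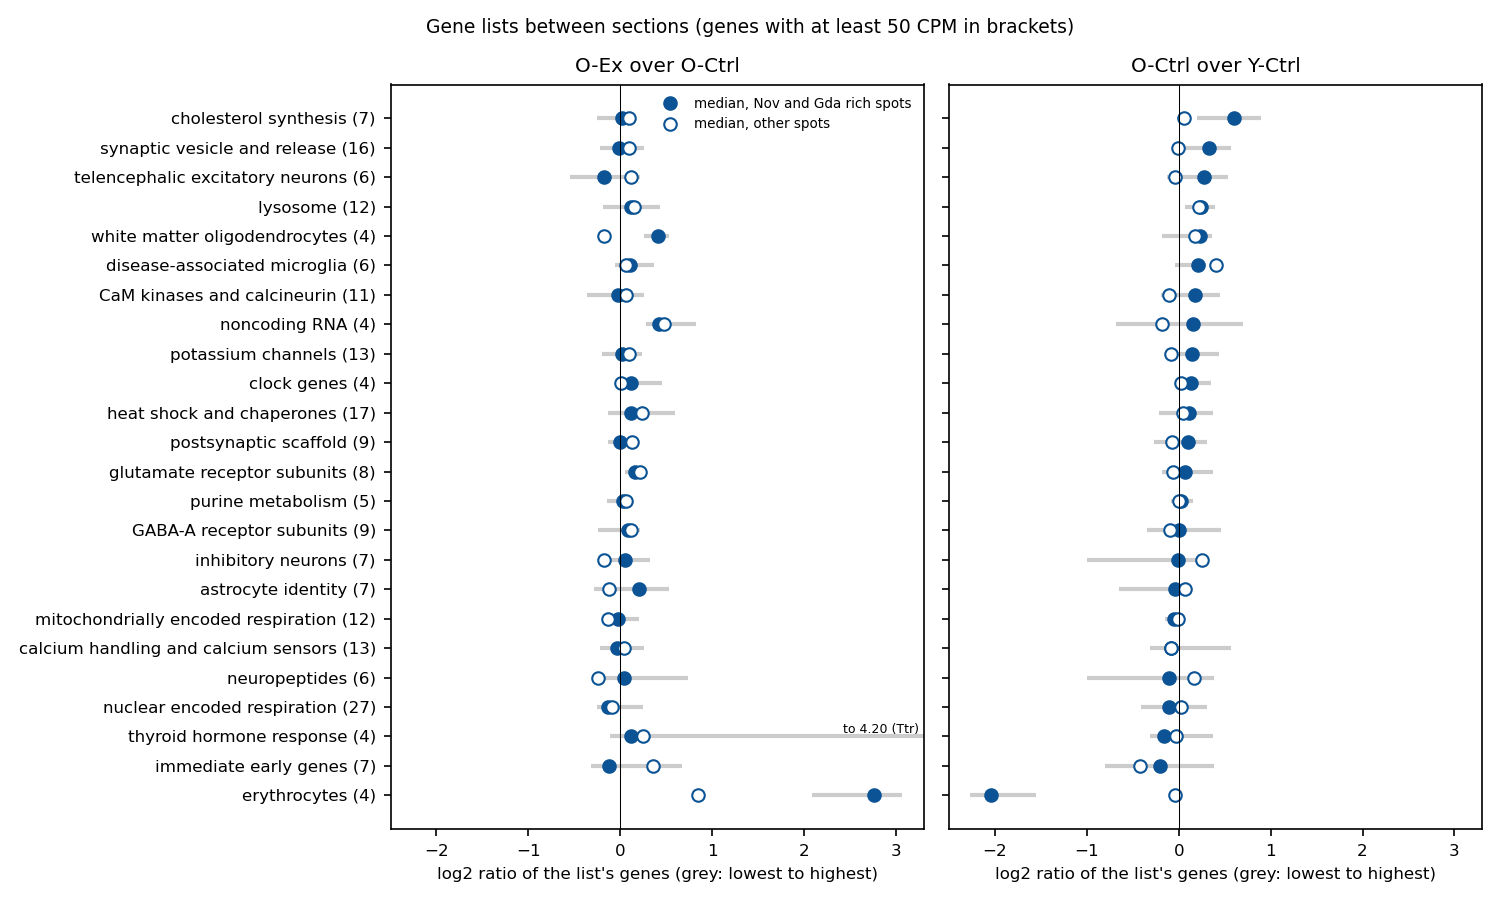
Median log2 ratio of each gene list with at least 4 genes at 50 CPM or more, in the selected spots (filled) and in the other spots (open), with O-Ex over O-Ctrl on the left and O-Ctrl over Y-Ctrl on the right; grey bars run from the lowest to the highest gene. Cholesterol synthesis has a median of 0.61 in the selected spots and 0.06 in the other spots on the right, and 0.02 in the selected spots on the left.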

How the data were processed

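Visium libraries of 3 brain sections were analysed, 1 in each group. The deposited matrices hold raw UMI counts. Per the file headers the authors ran Space Ranger 2.0.0, and the submitters' processing notes name the mm10 build. Neither images nor spot positions entered the work. Nuclear RNA is the molecule given in the labels, whereas the protocol places whole sections on the array.

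Members and gene lists were chosen with earlier results of these data known. Of 525 listed symbols 6 were not matched. For leading lists, ln(1 + counts per 10000) was summed over a list and standardised over the section's spots of at least 3000 UMIs. Counts were summed over spots and scaled to CPM on all UMIs. Named were the 10 highest and 10 lowest ratios of the same sign in the 65, 130 and 260 highest-scoring spots (without the selecting, mitochondrial, ribosomal and sex-linked genes), the 2 most abundant and 2 largest-ratio members of each list and the 20 leading genes; Arc, C4b, Gfap, Serpina3n and other listed genes outside this rule were chosen after their values were seen. Some genes that meet this rule are not reported here. Intervals are exact 95% Poisson or binomial (Clopper-Pearson), and a count of 0 allows 3 counts. No doublet caller was run on spots.

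On simulated counts 98.7% of differences of 2-fold or more were recovered for O-Ex over O-Ctrl (3326 genes) and 100% for O-Ctrl over Y-Ctrl (3229 genes). The simulation drew Poisson counting error alone, with no variation between spots, sections or animals. It thus checks the calculation and not the sensitivity of the comparison of sections. Coordinates are from GENCODE for mm10, counted from 1. Python 3.11.15, numpy 2.4.6, scipy 1.17.1, pandas 2.3.3 and, for TMM factors alone, edgeR 4.0.16 were used.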

Additional observations from a re-analysis of the deposited data

Results flagged for a closer look

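In 3 genes O-Ctrl lay below Y-Ctrl by at least 1.5-fold in the selected spots, with a log2 ratio of at least 0.3 in the other spots. Hba-a1, Myh7, Igfbp4 and Gcsh were also past 1.5-fold lower and above 0 in the other spots, but under 0.3 there. The difference between selected and other spots was not tested. Ptgds had a log2 ratio of -0.94 in the selected spots and 0.50 in the other spots, and of -0.21 among selected spots led by a cortical or amygdala and piriform list. Vip had -1.0 and 0.43, and Y-Ctrl stood apart with 139 CPM, against 66.8 CPM in O-Ex and 67.05 CPM in O-Ctrl. S100a6, a calcium-binding protein of glia and some neurons, had -0.75 and 0.36.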

How the results depend on the processing

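No paired analysis was possible because each group is 1 section and the columns carry no replicate numbers. The counts of 1.5-fold genes moved by over 1.5 times under these settings, and the cause was not tested. For O-Ex over O-Ctrl, higher (16) and lower (4): 36 and 11 with 65 spots, 76 and 16 at a mean of 20 CPM, 9 and 1 at 100 CPM; the lower count was also 2 with 260 spots and 1 with a pseudocount of 20. For O-Ctrl over Y-Ctrl, higher (44) and lower (21): 73 and 44 with 65 spots, 22 and 11 with 260, 113 and 54 at 20 CPM, 14 and 8 at 100 CPM; the higher count was also 26 with thinned scores and 20 with a pseudocount of 20.

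Alternatives chosen after seeing the data used fewer spots. Amygdala and piriform led spots alone gave 125 and 192, then 127 and 43; upper-layer led spots gave 101 and 97, then 89 and 54; cortical-led spots gave 10 lower for O-Ex. In the first of these, Lamp5 (0.45), Ly6c1 (-0.32) and Igfbp6 (0.014) changed sign for O-Ctrl over Y-Ctrl, and in upper-layer led spots Cdh13 (-0.12) for O-Ex over O-Ctrl. Of the other single-gene values 2121 and 2712 kept their size and 293 and 352 moved in the 2 comparisons. Spots thinned before scoring shared 61, 65 and 58 of 130 members with O-Ex, O-Ctrl and Y-Ctrl, and the 20 leading genes were again at least 1.5-fold higher in every section. Genes under 50 CPM are limited by depth.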
